A study of Mus musculus with 4 samples.

Results

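The genes described here are the 10 core genes of MHC class I antigen presentation: B2m, H2-K1, H2-D1, Tap1, Tap2, Tapbp, Erap1, Psmb8, Psmb9 and Nlrc5. They were chosen as a pathway, and every peak with its summit in the gene body or within 5 kb of it was taken, whatever its strength. Of the 77823 peaks in the list, 14 lay at these genes. The peaks came from ChIRP-seq, in which a nuclear RNA, here the long noncoding RNA Malat1, is captured with biotin-labelled antisense oligonucleotides and the DNA recovered with it is sequenced. The cells were 4T1-TGL, a breast cancer cell line from the BALB/c strain of mice with genotype WT, grown in DMEM/F12 with no further treatment named. There were 4 groups of 1 library each: a pull-down with Even probes, a pull-down with Odd probes, a pull-down with LacZ probes, which target no mouse RNA and serve as the usual control, and an input titled as that of the Even sample. All groups came from the same WT line, without cells lacking Malat1. The deposited list set 1 merged treatment against the input. The pull-downs that were merged are not given in the sources used here. Thus no value has a replicate error and the probe pools and the LacZ control could not be compared.

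MHC class I molecules show peptides from inside the cell to CD8+ T cells, and tumour cells can escape these T cells by losing them. Proteasomes that carry the inducible subunits Psmb8 and Psmb9 cut proteins into peptides, the transporter Tap1-Tap2 moves the peptides into the endoplasmic reticulum, Erap1 trims them, and tapasin (Tapbp) helps load them on a heavy chain (H2-K1 or H2-D1) paired with B2m. Interferon-gamma raises most of these genes, and Nlrc5 is a transactivator that acts on the promoters of some of them. ChIRP-seq measures where the captured RNA is recovered with DNA and gives no expression level.

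The promoters were read first, because this is where the interferon and Nlrc5 pathways act. The RefSeq table of build GRCm38.p6 held promoter windows, each from 250 bases before to 50 bases after a transcription start, for 8 of the 10 genes (9 windows), and Tap2 and Nlrc5 were not among them. A peak overlapped 0 of the 9 windows, against 1.94% of the 32619 windows of all genes. At so low a share, 0 of 9 is the likely outcome and does not set these promoters apart. The windows are also not separate, because the H2-K1 windows overlap and those of Psmb9 and Tap1 share 275 bases. The nearest peak lay 644 bp from the Tapbp window and 1027 bp from the Psmb8 window, which came closest, and 2577 bp from the Erap1 window. It lay 2999 bp from the H2-D1 window, 5433 bp from the B2m window, 11666 bp from the Tap1 window and 11691 bp from the Psmb9 window. The H2-K1 windows were the farthest from any peak, at 14538 and 14552 bp. The 250 bases before the start are shown for the pair nearest to a peak, and for the paralogs H2-D1 and H2-K1, of which one had peaks and the other none.
Tapbp promoter, chr17:33919228-33919477, plus strand: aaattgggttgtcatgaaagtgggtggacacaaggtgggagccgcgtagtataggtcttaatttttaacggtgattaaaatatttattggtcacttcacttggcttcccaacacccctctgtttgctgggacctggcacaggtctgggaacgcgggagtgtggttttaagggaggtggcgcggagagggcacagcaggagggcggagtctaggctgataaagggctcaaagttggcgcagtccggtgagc
Psmb8 promoter, chr17:34197945-34198194, plus strand: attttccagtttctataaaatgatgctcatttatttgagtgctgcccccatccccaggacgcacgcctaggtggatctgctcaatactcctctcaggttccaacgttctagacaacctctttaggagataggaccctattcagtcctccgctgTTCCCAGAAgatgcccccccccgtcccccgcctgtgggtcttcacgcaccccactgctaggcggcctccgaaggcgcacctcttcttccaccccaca
H2-D1 promoter, chr17:35262844-35263093, plus strand: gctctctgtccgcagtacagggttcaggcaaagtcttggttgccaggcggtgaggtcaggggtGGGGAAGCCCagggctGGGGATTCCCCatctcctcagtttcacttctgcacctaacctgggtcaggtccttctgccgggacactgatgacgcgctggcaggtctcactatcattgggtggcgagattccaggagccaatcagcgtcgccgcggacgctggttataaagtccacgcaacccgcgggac
H2-K1 promoter, chr17:34000348-34000597, minus strand: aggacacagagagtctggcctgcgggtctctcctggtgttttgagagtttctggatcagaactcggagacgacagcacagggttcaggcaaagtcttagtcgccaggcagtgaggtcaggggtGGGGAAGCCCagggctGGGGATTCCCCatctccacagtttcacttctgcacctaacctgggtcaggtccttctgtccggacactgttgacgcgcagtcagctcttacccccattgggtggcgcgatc

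Capitals mark matches to 3 motifs searched on both strands of the full windows: the core of the interferon-stimulated response element (TTTCNNTTTC, or GAAANNGAAA on the other strand), the gamma-activated site (TTCNNNGAA) and an NF-kB core (GGGGNNNCCC, or GGGNNNCCCC on the other strand). These letters occurred in 3.46%, 8.34% and 5.25% of all promoter windows. H2-D1 and H2-K1 each held GGGGAAGCCC and, downstream of it, GGGGATTCCC, which overlaps a match on the other strand, GGGATTCCCC. In a local alignment, 206 of 227 aligned bases of their windows were identical (90.7%). Psmb8 held a gamma-activated site, TTCCCAGAA, from 97 to 89 bases before its start. B2m held an interferon-stimulated core, GAAACTGAAA, from 139 to 130 bases before its start. Erap1 held another, TTTCACTTTC, at the transcription start of its window, which lies inside the Erap1 span given below. Tapbp, Tap1 and Psmb9 held none of the 3, and the windows of Psmb9 and Tap1, genes that start back to back, shared 275 bases. A match describes these letters only, and no peak lay in any of these windows. Other forms of these elements, and the elements through which Nlrc5 acts, were not searched. A window without a match is therefore not shown to lack them.

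At least 1 summit was found at 8 of the 10 genes, against 61.1% of the 21523 protein-coding genes tested. H2-K1 and Psmb9 had none. Long genes catch more summits, so each gene was also set against the summit density in the 1 Mb on either side of its window, and against protein-coding genes of like window length. The flanks predicted 5.49 genes with a summit, and genes of like length 5.29. A summit inside the gene body was found at 5 of the 10 (Tapbp, Erap1, H2-D1, Psmb8 and Nlrc5), against 48.2% of all genes.

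The 14 peaks gave 17 pairs of a peak and a gene, because 2 peaks lay near more than 1 of the neighbouring genes Tap1, Tap2 and Psmb8. Summed over the windows, with shared peaks counted at each gene, 17 summits were observed where the flanks predicted 10.2. More summits than predicted lay at 7 genes, against 41.7% of all genes, and fewer at 3 genes, H2-K1, Psmb9 and Nlrc5, against 57.8%. The median ratio of observed to predicted summits was 2.23 for the class I genes and 0.764 for all genes. The interval of the class I median, taken from the ranked ratios, was 0 to 4.21. The pooled ratio was 1.67, with an interval of 0.974 to 2.68 that counts shared peaks as if they were separate. Both intervals include 1, the pooled one only narrowly. The higher pooled count rests on the 5 kb margins. In the gene bodies alone there were 6 summits against 6.60 predicted, and 3 genes had more than predicted, against 33.4% of all genes. The median ratio there was 0.154, against 0 for all genes. Within 1 kb there were 8 summits against 7.33 predicted, with a median ratio of 0.541, against 0.391 for all genes. With only peaks of a deposited score of at least 100, 8 summits stood against 5.01 predicted. Here 4 genes had more, against 33.7% of all genes, and 6 fewer. The median ratio was 0.249, against 0 for all genes. Of the 7 genes with more in the 5 kb windows, 5 lie in the MHC of chromosome 17, where they share flanks and in part peaks, so they are not independent of one another.

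In a two-sided exact binomial test of window against flanks with Benjamini-Hochberg adjustment over all genes, none of the 10 passed an adjusted p of 0.05. Over the genome, 0.0790% of genes passed with more summits and 0.0418% with fewer. Without adjustment, Tapbp and H2-D1 had p under 0.05, both with more summits, as did 4.67% of all genes. With 0 to 4 summits per gene, the test can show only large differences, and its p-values describe this list of peaks, not repeated pull-downs.

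**Figure D1:**
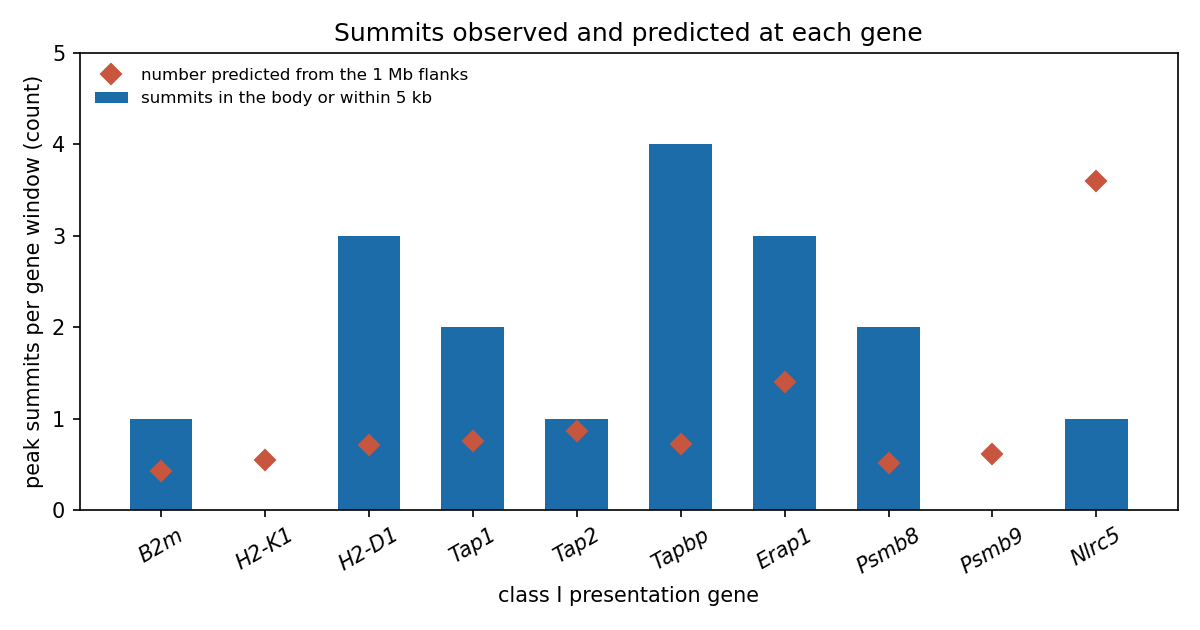
Summits in the body or within 5 kb of each class I gene (bars, count) and the number predicted from the 1 Mb flanks (diamonds), with 1 merged treatment and so no error bars. Tapbp stands highest with 4 summits against 0.723 predicted, H2-K1 and Psmb9 have none, and Nlrc5 has 1 where 3.60 were predicted.

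The first group forms the class I molecule itself. B2m, the invariant light chain, spans 122147687 to 122153082 on chromosome 2 on the plus strand. It had 1 peak, from 122153169 to 122153551, with 26 tags and a fold enrichment of 227. Tags are reads of the merged treatment, and the fold is the authors' peak-caller value, the height at the summit over the local input, used here only to describe and rank peaks within the list. This peak held the most tags of the 14, and only 5.32% of all peaks held as many. Its summit lay 371 bp beyond the 3′ end of B2m and inside the span of the neighbouring gene Patl2, so it cannot be assigned to B2m alone. The flanks predicted 0.431 summits, and the ratio of 2.32 had a 95% exact interval of 0.0577 to 13.5, which, as for every interval here, covers counting error only. The exact binomial p was 0.354 (adjusted p = 1.00), and 43.0% of the 4652 genes of like length had a summit. With summits counted in the gene body alone, B2m had none.

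H2-D1 encodes one of the classical heavy chains, which bind the peptide, and spans 35263094 to 35267497 on chromosome 17 on the plus strand. It had 3 peaks where the flanks predicted 0.713 summits, a ratio of 4.21 (95% exact interval 0.853 to 12.7). The exact binomial p was 0.0372, and the adjusted p of 0.880 did not pass. The peak in the gene body, 3228 bp from the start, ran from 35266273 to 35266504 and held 14 tags at a fold of 207. The other peaks lay upstream, at 3791 bp with 7 tags and a fold of 125, and at 3288 bp with 3 tags and a fold of 59.4, the lowest fold of the 14. The peak in the body was thus stronger by both measures than the pair upstream of the gene.

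The upstream pair also stood on a raised input. From each summit height and fold, the local input was recovered in units of the genome mean, called the implied input below, which is 1 or more by construction. It was 2.87 and 3.02 at the upstream peaks and 1.74 at the peak in the H2-D1 body, against a median of 1.4 over all peaks. The part that this input level has in the H2-D1 count was not tested. The B2m peak had an implied input of 2.10, also above that median.

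H2-K1, the other heavy chain listed, spans 33996012 to 34000619 on chromosome 17 on the minus strand and had 0 summits, where the flanks predicted 0.548. The ratio of 0 had an exact interval that reached 6.90 (exact binomial p = 1.00, adjusted p = 1.00), and 41.0% of genes of like length had a summit, so the absence of a peak was not distinguishable from the flanks at this depth. The nearest peak lay 10351 bp beyond the 3′ end of H2-K1, outside the 5 kb margin. It ran from 33985594 to 33985746 and held 22 tags at a fold of 778, which is above the fold of any of the 14 peaks, over an implied input of 1.00. A fold that high was not reached within 5 kb of any of the 10 genes. H2-K1 and H2-D1 are close paralogs, and how reads that match more than 1 heavy chain gene were placed was not given in the sources used here. The contrast between them is therefore uncertain.

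**Figure D2:**
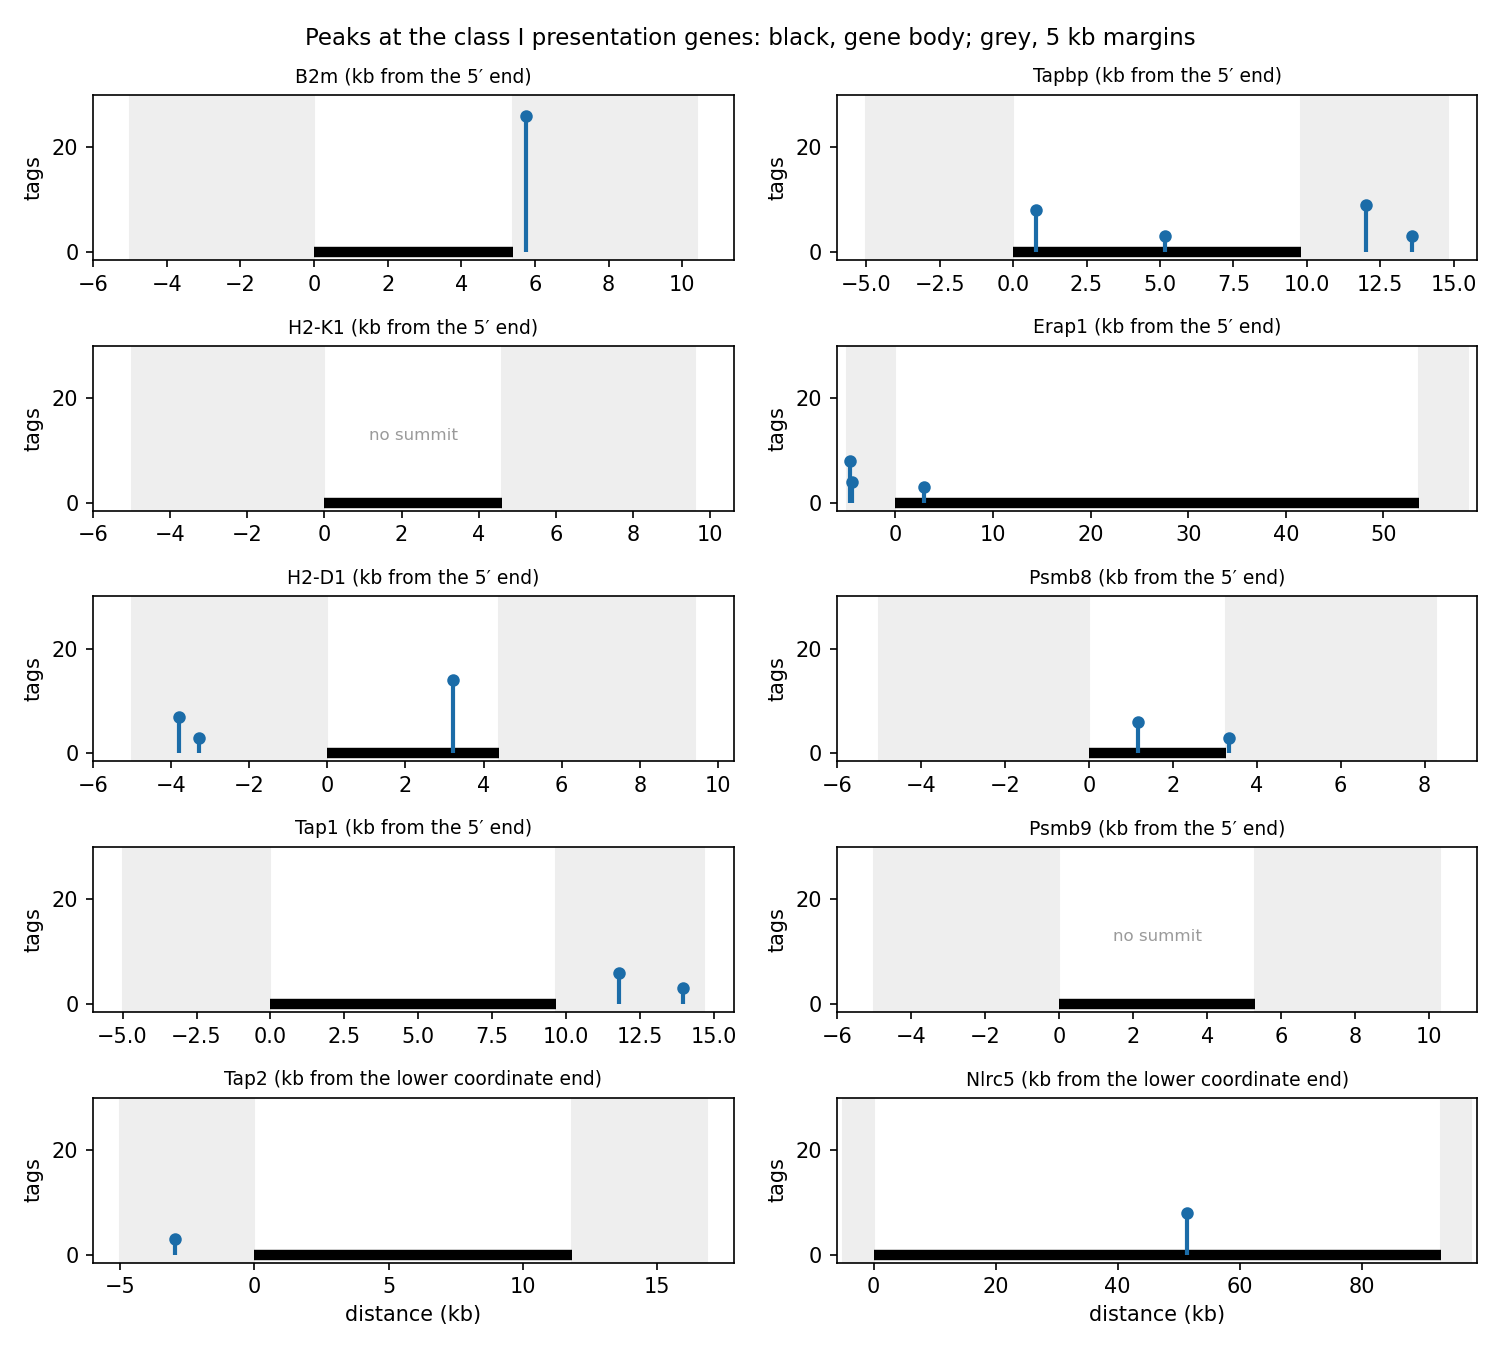
Position of each peak summit (horizontal axis, kb from the 5′ end of the gene, or from the lower coordinate end for Tap2 and Nlrc5) and its tags (vertical axis, count) at the 10 genes, with the gene body in black and the 5 kb margins in grey. The B2m peak of 26 tags lies just past the gene, the strongest H2-D1 peak lies in the body, and H2-K1 and Psmb9 are empty.

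The peptide transporter and the inducible proteasome subunits sit side by side on chromosome 17, in the order Psmb9, Tap1, Psmb8, Tap2. From the 3′ end of Psmb9 at 34182030 to the upper end of Tap2 at 34216321, a stretch of 34.3 kb, there were 2 summits, where 1.35 were predicted from the flanks of these genes. No other peak lay within 42.4 kb on the lower side or 43.5 kb on the upper side. Both summits fell in or just beyond Psmb8.

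Psmb8, the inducible subunit that takes the place of Psmb5 in the immunoproteasome, spans 34198195 to 34201454 on the plus strand. One peak, from 34199271 to 34199480, lay in its body 1163 bp from the start, with 6 tags, a fold of 87.3 and an implied input of 2.06. The other, from 34201479 to 34201580, lay 75 bp past the end of Psmb8 and in no annotated gene, with 3 tags, a fold of 111 and an implied input of 1.62. Both folds were below the list's median of 133, and 3 tags is the fewest of any peak in the list. Against 0.517 summits predicted, the Psmb8 ratio was 3.87 (95% exact interval 0.460 to 14.4, exact binomial p = 0.0980, adjusted p = 1.00), and 32.7% of the 5652 genes of like length had a summit.

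Tap1 and Tap2 form the transporter, and neither had a summit in its body. Tap1 (34187556 to 34197225, plus strand) counted both Psmb8 peaks in its 5 kb margin, at 2133 and 4304 bp past its end, against 0.757 predicted. Its ratio of 2.64 had a 95% exact interval of 0.314 to 9.87 (exact binomial p = 0.180, adjusted p = 1.00). Tap2 (34204479 to 34216321) counted only the peak of 3 tags, at 2950 bp, against 0.863 predicted, a ratio of 1.16 with an exact interval of 0.0290 to 6.65 (exact binomial p = 0.581, adjusted p = 1.00). The Psmb8 body peak, which had more tags but the lower fold, fell just outside the Tap2 margin, at 5121 bp. When each peak was counted only for its nearest gene, a count chosen after the data were seen, Tap1 and Tap2 had none and 6 of the 10 genes had a summit.

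Psmb9, the subunit that takes the place of Psmb6, spans 34182030 to 34187330 on the minus strand and had 0 summits against 0.612 predicted. Its exact interval reached a ratio of 6.17 (exact binomial p = 1.00, adjusted p = 1.00), and 42.9% of genes of like length had a summit. The nearest peak was the one in Psmb8, 12028 bp away. At Tap1, Tap2 and Psmb8 the higher count turned into a lower one, 0 summits, when only peaks with a deposited score of at least 100, or only peaks at or above the median fold, were counted.

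Tapbp, the tapasin that holds empty class I molecules at the transporter, had the most summits of the 10 genes and the lowest p. It spans 33919478 to 33929290 on chromosome 17 on the plus strand, and 4 summits lay at it where 0.723 were predicted. The ratio was 5.53 (95% exact interval 1.47 to 14.8). The exact binomial p was 0.00710 and the adjusted p of 0.572 did not pass the test, with a range of 0.548 to 1.00 over the alternatives tried. Of genes of like length, 51.2% had at least 1 summit.

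The Tapbp peak closest to the promoter ran from 33920171 to 33920304, 765 bp downstream of the start, with 8 tags, a fold of 158 and an implied input of 1.89. It also lies in the long noncoding gene Gm19412. A weaker peak in the body, at 5156 bp, held 3 tags at a fold of 98.6. The strongest of the 4 ran from 33931328 to 33931530, 2189 bp past the end of Tapbp and inside the neighbouring gene Rgl2, with 9 tags, a fold of 252 and an implied input of 1.19. The last, 3785 bp past the end, also in Rgl2, held 3 tags at a fold of 92.4. So 2 of the 4 summits lay in the gene itself and 2 in its neighbour.

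Erap1, the aminopeptidase that trims peptides to the length class I molecules hold, spans 74639573 to 74693205 on chromosome 13 on the plus strand. It had 3 summits where 1.4 were predicted, a ratio of 2.14 (95% exact interval 0.426 to 6.69, exact binomial p = 0.176, adjusted p = 1.00). Upstream of the gene, 2 peaks lay close together in no annotated gene. The farther one, from 74634898 to 74635054 and 4625 bp before the start, had 8 tags and a fold of 348, the highest fold of the 14. The nearer one, 4464 bp before the start, had 4 tags and a fold of 239. Implied inputs were 1.03 and 1.000, at or near the lowest value the measure can take. These lay just inside the 5 kb margin. The peak in the body, 2954 bp from the start, held 3 tags at a fold of 109. These distances are from the start of the span. From the transcription start of the promoter window, the 3 summits lay at -4905, -4744 and 2674 bp. Within 1 kb of Erap1 the observed count fell below the flank prediction, with a ratio of 0.782, and 81.6% of the 2257 genes of like length had a summit.

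Nlrc5, the transactivator, is the longest of the 10 genes, from 94434335 to 94527272 on chromosome 8, and had 1 summit where 3.60 were predicted. The ratio of 0.278 had a 95% exact interval of 0.00693 to 1.60 (exact binomial p = 0.266, adjusted p = 1.00). Of the 1518 genes of like length, 90.7% had at least 1 summit. The peak, from 94485645 to 94485879, lay in the body with 8 tags, a fold of 210 and an implied input of 1.14. The next peak, 7330 bp beyond the gene, held 16 tags at a fold of 273. Nlrc5 was thus the only gene with a peak whose count lay below its flanks, and that difference was not distinguishable from counting error.

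The 14 peaks were of ordinary strength for the list. Their tags ranged from 3 to 26 with a median of 6.50, against 5 over all peaks, and 5 of the 14 (35.7%) held only 3 tags, against 37.2%. Folds ranged from 59.4 at H2-D1 to 348 at Erap1, with a median of 142 against 133, and 7 of the 14 were at or above the list's median. The median implied input was 1.64 against 1.4. The list holds 3141 peaks of at least 30 tags. Of all genes 6.04% have one, and 0 of the 10 class I genes did, which is not distinguishable from that share. All 14 peaks together held 105 tags of the 851227 that the treatment kept after filtering, so each value rests on few reads.

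**Figure D3:**
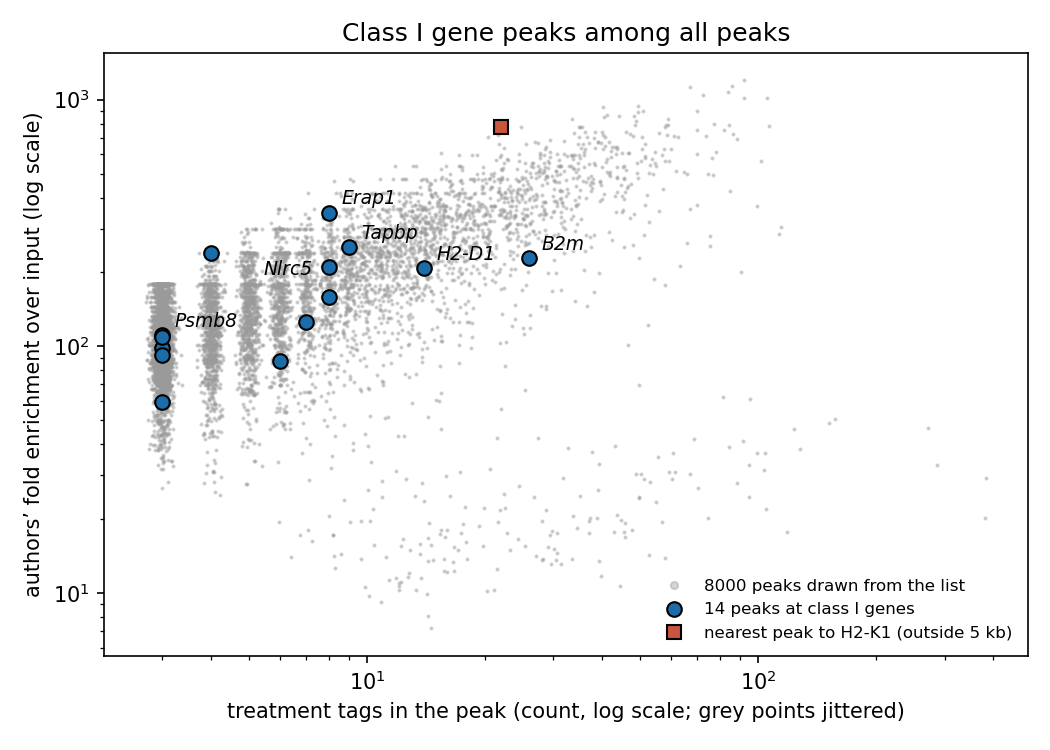
Treatment tags (horizontal, log scale) and the authors' fold enrichment (vertical, log scale) of the 14 class I gene peaks (blue) over 8000 peaks drawn from the list (grey), with the nearest peak to H2-K1, outside the 5 kb margin, as a square. The class I peaks lie within the grey cloud, from 3 to 26 tags, and the H2-K1 neighbour stands above them at a fold of 778.

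The 7 class I genes of chromosome 17 (Tapbp, H2-K1, Psmb9, Tap1, Psmb8, Tap2 and H2-D1) lie in the MHC, so the region was described as a whole. From the start of Tapbp to the end of H2-M2, over 3.56 Mb, there were 160 summits, or 44.9 per Mb, against 29.1 per Mb on the rest of chromosome 17. The ratio was 1.54 (1.31 to 1.81 from counting error only, taking summits as independent). The MHC peaks had a median fold of 124 against 145 elsewhere on the chromosome, and a median implied input of 1.4 against 1.30. Peaks of at least 30 tags made up 3.75% in the MHC and 3.35% elsewhere. Bins of 100 kb held 1 to 11 summits with a median of 4.00, and the bin with H2-D1 held the most.

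Around H2-D1 the raised input was local. In the 78.8 kb from the start of Ddx39b to the start of H2-Q1, a stretch chosen after its values were seen, 12 of 14 peaks had an implied input of at least 2, against 6 of the other 146 MHC peaks (4.11%). That share was 7.79% on the rest of chromosome 17 and 15.4% over chromosomes 1 to 19 and X. The median implied input in the stretch was 2.76 and the median fold 67.8, against 1.37 and 131 in the rest of the MHC. The H2-D1 body peak was one of the pair with a lower input. Without the stretch, the MHC held 41.9 summits per Mb, a ratio of 1.44, and the density in the flanks of H2-D1 went from 49.5 to 45.5 per Mb.

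**Figure D4:**
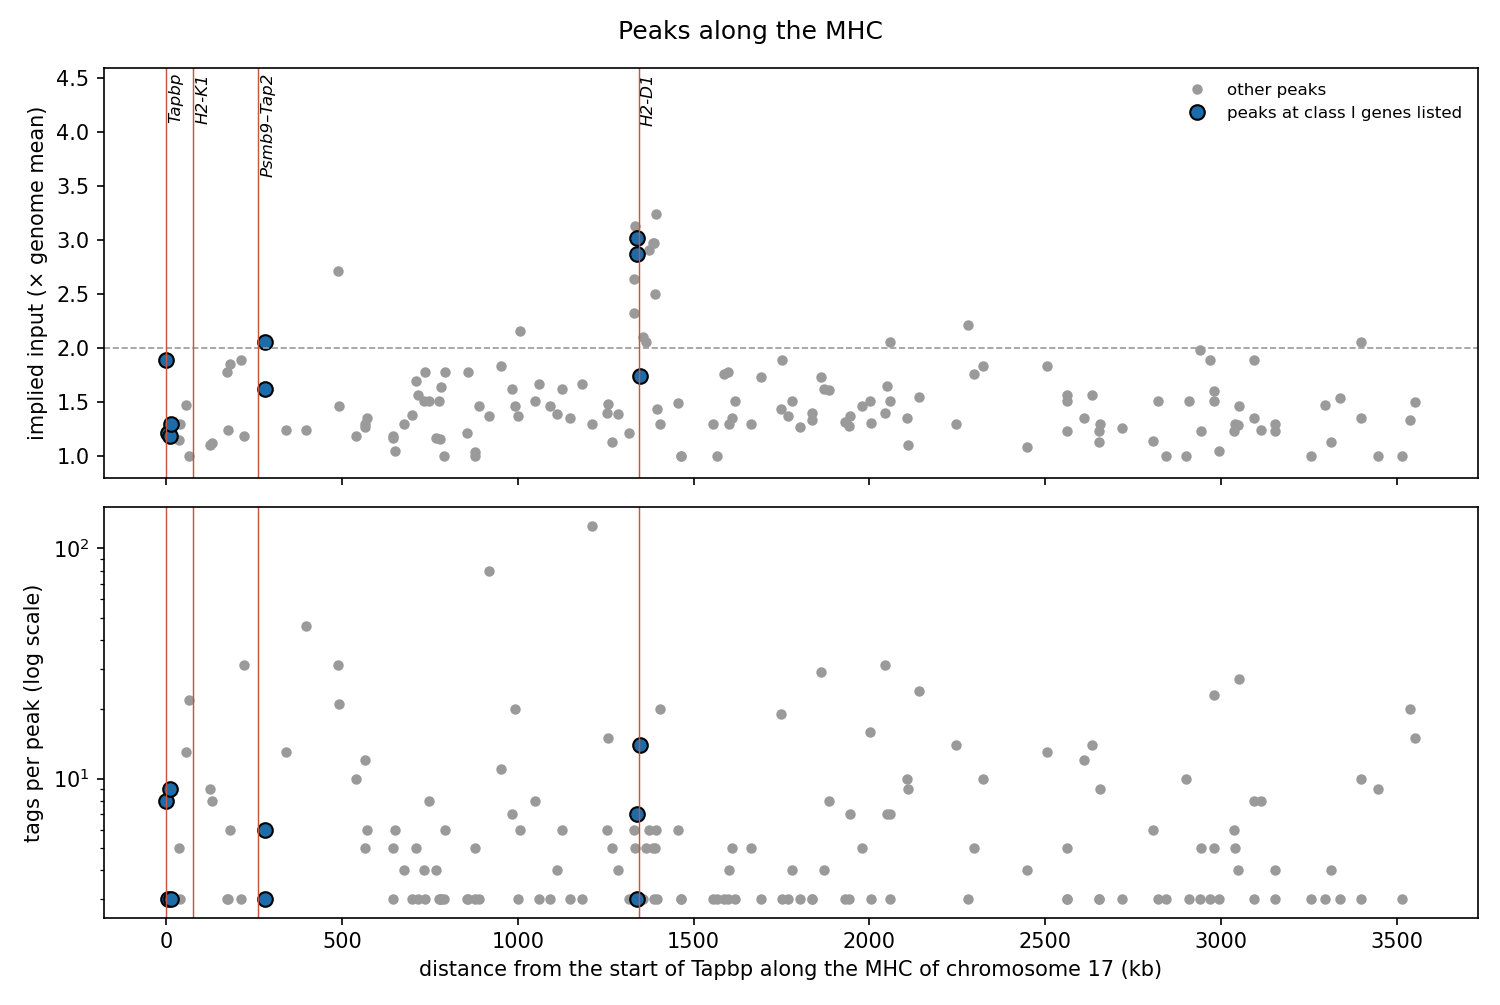
Implied input at each MHC peak (upper panel, in units of the genome mean) and its tags (lower panel, log scale) against the distance from the start of Tapbp in kb, with peaks at the class I genes in blue and gene positions as red lines. The points above the dashed line at 2 crowd around H2-D1, where the upstream peaks reach 2.87 and 3.02.

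Other genes of the pathway were counted in the same way. Of 33 class I heavy chain and class I-like genes other than H2-K1 and H2-D1, including pseudogenes, 11 had a summit (33.3%), where the flanks predicted 14.7 and genes of like length 12.9. The highest folds were at H2-M6-ps, a pseudogene (493, 27 tags), H2-M10.6 (359), H2-Q1 (323, 20 tags) and H2-K2 (284, 13 tags). H2-Q1 and H2-K2 are near copies of the classical genes, so the same doubt about read placement holds for them. None of its 25 protein-coding genes passed the adjusted exact binomial test, and 1 had an unadjusted p under 0.05.

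Of 9 partners in loading and transport, 5 had a summit, with 5.90 predicted. Ganab, a glucosidase of the endoplasmic reticulum, had 3 summits against 0.473 predicted (exact binomial p = 0.0143, adjusted p = 0.673), with a highest fold of 111. Uggt1, which checks glycoprotein folding, had 6 against 6.4 predicted and the highest fold of the list, 210. Sec61a1, of the translocation channel, had 1 against 1.08 predicted, and Lnpep, an aminopeptidase, had 3 against 2.88. Of 13 genes of peptide supply, 8 had a summit, with 8.47 predicted. More summits than predicted lay at 4 of the 13 and fewer at 9, and 18 summits lay at them against 20.5 predicted. Psme3, a proteasome activator, had 1 summit against 2.00 predicted, a peak of 35 tags at a fold of 462. Psmb7, a constitutive proteasome subunit, had 6 summits against 2.44 predicted (exact binomial p = 0.0428, adjusted p = 0.918). Psme4, another activator, had 4 against 4.18 predicted with a highest fold of 343, and Thop1, a peptidase, had 3 against 1.37. Neither list had a gene past the adjusted test, and each had 1 with an unadjusted p under 0.05.

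Of 14 genes that encode factors acting on class I promoters, 6 had a summit, where 9.80 were predicted, and 21 summits lay at them against 24.1 predicted. More summits than predicted lay at 4 of the 14 and fewer at 10, among them Creb1 with 0 against 3.02 and Nfyc with 0 against 3.20, which were picked after their values were seen. Ciita, the transactivator of class II genes, had 2 against 3.24 predicted, with a highest fold of 245. Irf1, an interferon-induced activator of class I genes, had 4 summits against 0.689 predicted (exact binomial p = 0.00599, adjusted p = 0.542), with a highest fold of 191. Nfkb1, a subunit of NF-kB, had 9 against 3.34 (exact binomial p = 0.0104, adjusted p = 0.611), with a highest fold of 416. Rfxank, a subunit of the RFX complex through which Nlrc5 reaches promoters, had a peak of 56 tags at a fold of 771. None passed the adjusted test.

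Class II genes, most of them in the MHC, served as neighbours with another function, the display of peptides to CD4+ T cells. Of 10 genes, 5 had a summit, with 5.40 predicted. H2-Eb1, a class II beta chain, had a peak of 46 tags at a fold of 771, and H2-DMa and H2-DMb2, which help load class II molecules, shared a peak of 31 tags at a fold of 452. That shared peak is also the nearest to Tap1 on its lower side, at 47912 bp. H2-Ab1, another class II beta chain, had 1 summit against 0.696 predicted, at a fold of 289. None of the 10 passed the adjusted exact binomial test, and 1, H2-Oa, had an unadjusted p of 0.0125 (adjusted p = 0.651).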

How the data were processed

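ChIRP-seq was done on 1 library each of the Malat1 Even, Malat1 Odd and LacZ pull-downs and input. Per the file headers, the authors called peaks with MACS 1.4.4 on 1 merged treatment (988411 tags, 851227 after filtering) against input (52861677, then 50030325), 58.8 times as deep, with a p cutoff of 1e-05, tags of 25 bp, fragments of 53 bp and input backgrounds over 1 kb and 10 kb. The submitters' processing notes name mm10 and GRCm38. The aligner was not given in the sources used here. The deposited tag counts per peak are whole numbers, the deposited fold is a ratio to local input, their scores are the negative log10 of p times 10, the deposited summit height is a coverage signal, and their false discovery rates, in percent, are all 0. The 3 files hold the same 77823 peaks.

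Gene spans came from the RefSeq table of GRCm38.p6. Summits were counted over 21523 protein-coding genes on chromosomes 1 to 19 and X, without 108 genes that the table places in the first 3 Mb of a chromosome, where no summit lay. The same holds for H2-Q8, H2-Q9 and H2-T18, which are not analysed here. Windows were compared with 1 Mb flanks by a two-sided exact binomial test with Benjamini-Hochberg adjustment over all genes (SciPy 1.17.1, pandas 2.3.3), a test checked on made data with known answers. Implied input is the summit height over the fold, over the genome mean of 0.0167 tags per fragment length for an effective genome of 2.7 gigabases. Promoter windows were aligned with Biopython 1.88. The motif search was planned for promoters next to a peak and was extended to all windows given.

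All 10 genes are named, with up to 4 genes of highest fold per companion list and any that passed the adjusted test, and neighbours that share a peak. H2-Oa, Creb1, Nfyc and the stretch around H2-D1 were also picked for their values. The genes and lists were chosen with earlier results of these data known. Alternatives varied the peaks counted, the margin and the flanks.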

Additional observations from a re-analysis of the deposited data

How the results depend on the processing

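Of 110 comparisons of a class I gene with its flanks over 11 alternatives, 95 kept the direction and stayed on the same side of the threshold, and 15 reversed to fewer summits than predicted. Tap1, Tap2 and Psmb8 had a ratio of 0 with scores of at least 100 and with folds at or above the median. Tap2 had 0 without peaks of 3 tags. In the body alone, B2m, Tap1 and Tap2 had 0 and Erap1 0.811. Within 1 kb, Tap1 and Tap2 had 0 and Erap1 0.782. With 0.5 Mb flanks, Tap2 had 0.954. Some of the 95 could not have changed direction. Keeping genes of the first 3 Mb altered no window or flank of the 10 genes. H2-K1 and Psmb9, with 0 summits, could not turn higher where peaks were removed, the margin narrowed or only the flanks changed. None of the 10 passed the adjusted exact binomial test under any of the 11. The adjusted p ranged from 0.548 to 1.00 for Tapbp, 0.650 to 1.00 for H2-D1 and 0.783 to 1.00 for Psmb8.

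Class I genes with a summit went from 8 to 5 with scores of at least 100 (background 42.8%), with folds at or above the median (45.8%) and in the body alone (48.2%). The 79 companion genes with a summit went from 35 to 23 with scores of at least 100. Genes passing the adjusted test over the genome went from 26 to 12 with scores of at least 100, 16 in the body alone, 11 with 0.5 Mb flanks and 65 with 2 Mb flanks. They went to 0 with folds at or above the median, where 702 genes had an unadjusted p under 0.05. Over the 10 genes, the pooled ratio of observed to predicted summits went from 1.67 to 0.910 in the body alone. Their median ratio went from 2.23 to 0.249 with scores of at least 100 and 0.194 with folds at or above the median. It was 0.154 in the body alone and 0.541 within 1 kb. Over all genes the median ratio went from 0.764 to 0.391 within 1 kb and to 0 in each of the other settings just named. The MHC ratio went from 1.54 to 1.24 with folds at or above the median. The cause of these changes was not tested. No paired analysis was possible because the single list is of a merged treatment, and no library could be left out.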

Other observations

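The MHC held 6 peaks of at least 30 tags, and none lay at the 7 class I genes listed there. Only 6.04% of all genes have such a peak, so none at 7 genes does not set them apart. Among the 6 peaks, picked after their values were seen, was one at Apom, an apolipoprotein gene, from 35129923 to 35130504 with 125 tags and a fold of 970. A peak of 80 tags at a fold of 655 lay at Dxo, an RNA decapping enzyme gene.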
